A study of Mus musculus with 5 samples.

Results

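Basophils and mast cells were examined in single-cell RNA counts from the whole lung of E18.5 mouse embryos, an age shortly before birth. A member barcode had 500 genes or more and no more than 15% of its unique molecular identifiers (UMIs, each counting 1 captured RNA molecule) from mitochondrial genes. They held a UMI of at least 2 of the 6 genes Ms4a2, Cpa3, Mcpt8, Fcer1a, Prss34 and Cyp11a1, and none of C1qa, Cd79a, Epcam, Cdh5 or Pdgfra, which mark macrophages, B cells, epithelium, endothelium and fibroblasts. The rule found 129 members among 19491 barcodes that passed the 500-gene and mitochondrial filter (kept barcodes), of 50355 deposited. The libraries came from 2 Zswim8+/- embryos (Het1 and Het2) and 3 Zswim8-/- embryos (KO1, KO2 and KO3), each from the dissociated lungs of its own embryo. No further treatment was given by the labels, and the Het embryos served as controls and carry 1 mutant allele themselves. Values listed per library are in the order Het1, Het2, then KO1, KO2, KO3. Zswim8 encodes the substrate adaptor of a ubiquitin ligase that removes Argonaute proteins whose microRNA is bound to a trigger RNA, so that the microRNA decays.

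Mast cells and basophils are granulocyte-related cells that bind IgE through the high-affinity receptor FcεRI and release histamine, proteases, lipids and cytokines when it is crosslinked. Mast cells reside in tissues, depend on the receptor kinase Kit, and store chymases and tryptases. Basophils circulate, depend on interleukin 3, and in mice are marked by the protease Mcpt8. Both lineages require the transcription factor Gata2. In the lung, basophils are known to respond to interleukin 33 through Il1rl1 and to influence the maturation of alveolar macrophages around birth.

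The promoters of 4 genes that define these cells are shown because GATA factors act in both lineages, with those of Ctla2a and Ctla2b because a result below turns on the first and the second is its neighbour and paralog. Each sequence runs 5′ to 3′ on the gene's own strand, from 250 bases before to 50 bases after the RefSeq start, in build GRCm38.p6. Capitals mark matches to the GATA factor motif on either strand, searched as the words AGATAA and AGATAG, and also as TGATAA with its variant TGATAG. These were found in 29.8% of the 32851 promoters of the same length. The windows are Ms4a2 chr19:11623670-11623969, Cpa3 chr3:20242132-20242431, Mcpt8 chr14:56085148-56085447 and Cma1 chr14:55944626-55944925. Those of the paralogs are Ctla2a chr13:60936576-60936875 (the more upstream of 2 annotated starts) and Ctla2b chr13:60897398-60897697, and all 6 lie on the minus strand.
Ms4a2: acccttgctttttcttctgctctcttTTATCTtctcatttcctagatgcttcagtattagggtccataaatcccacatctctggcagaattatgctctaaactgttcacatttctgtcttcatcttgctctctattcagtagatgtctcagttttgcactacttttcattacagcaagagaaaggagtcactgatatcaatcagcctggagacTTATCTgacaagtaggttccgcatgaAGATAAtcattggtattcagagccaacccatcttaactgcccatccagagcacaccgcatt
Cpa3: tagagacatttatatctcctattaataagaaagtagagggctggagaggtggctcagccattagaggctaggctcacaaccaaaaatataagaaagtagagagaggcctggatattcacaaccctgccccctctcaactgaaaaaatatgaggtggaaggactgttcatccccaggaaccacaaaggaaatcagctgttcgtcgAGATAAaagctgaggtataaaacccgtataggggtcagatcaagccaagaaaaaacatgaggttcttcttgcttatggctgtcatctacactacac
Mcpt8: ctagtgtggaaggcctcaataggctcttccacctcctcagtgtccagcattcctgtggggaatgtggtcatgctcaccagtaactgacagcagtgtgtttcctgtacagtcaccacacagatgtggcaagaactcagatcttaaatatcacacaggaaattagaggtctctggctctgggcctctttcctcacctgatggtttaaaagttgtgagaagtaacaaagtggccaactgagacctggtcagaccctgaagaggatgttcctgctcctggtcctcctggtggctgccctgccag
Cma1: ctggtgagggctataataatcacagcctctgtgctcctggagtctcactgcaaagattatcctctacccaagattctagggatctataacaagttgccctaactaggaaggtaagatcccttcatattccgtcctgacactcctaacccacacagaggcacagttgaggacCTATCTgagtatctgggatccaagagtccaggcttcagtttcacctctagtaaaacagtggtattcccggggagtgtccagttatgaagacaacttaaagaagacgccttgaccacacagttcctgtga
Ctla2a: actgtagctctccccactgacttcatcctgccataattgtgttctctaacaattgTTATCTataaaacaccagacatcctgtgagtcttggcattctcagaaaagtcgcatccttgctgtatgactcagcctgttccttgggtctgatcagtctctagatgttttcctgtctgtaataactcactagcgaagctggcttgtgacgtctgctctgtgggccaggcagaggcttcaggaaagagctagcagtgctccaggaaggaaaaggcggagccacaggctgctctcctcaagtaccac
Ctla2b: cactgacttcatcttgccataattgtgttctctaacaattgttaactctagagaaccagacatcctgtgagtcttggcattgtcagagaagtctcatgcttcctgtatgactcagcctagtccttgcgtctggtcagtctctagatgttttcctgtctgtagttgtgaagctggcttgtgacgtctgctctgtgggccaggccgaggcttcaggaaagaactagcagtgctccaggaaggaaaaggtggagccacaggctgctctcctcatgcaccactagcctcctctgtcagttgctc
Ms4a2 held 3 matches, at positions -224, -37 and -11 from the start, Cpa3 held 1 at -46 and Cma1 held 1 at -79. The Mcpt8 and Ctla2b windows held 0, and the Ctla2a window held 1 at -195. The window of the other Ctla2a start, not shown, held 0, as did the 2 windows of Gata2. The Ctla2a and Ctla2b windows aligned with 91.7% of the aligned bases identical and 44 gap bases. A match is a description of letters and not of binding.

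Across the series, deposited barcodes numbered 8722 to 13539 per library, and the kept barcodes held 43424335 to 69579843 UMIs. Zswim8 RNA in all kept barcodes was 37.5 and 38.9 CPM (counts scaled to library depth) in Het against 38.9, 38.8 and 40.2 in KO-labelled libraries. The log2 difference of 0.04 (standard error, SE, 0.06) gave an edgeR adjusted p of 0.688. The labels do not name the allele, and 3′ counting cannot tell an intact transcript from a damaged one. The libraries are therefore called KO-labelled, and every direction rests on the labels. By Xist, KO1 and KO2 were female and the other 3 libraries male, so sex is partly joined to genotype. Libraries shared 34 kept barcodes in pairs, and 0 of these were member barcodes.

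Members numbered 27 of 4820 kept barcodes in Het1, 28 of 4204 in Het2, 10 of 3129 in KO1, 41 of 3324 in KO2 and 23 of 4014 in KO3. Their shares were 0.560% (exact binomial 95% interval 0.370 to 0.814) in Het1 and 0.666% (0.443 to 0.961) in Het2. In the KO-labelled libraries they were 0.320% (0.153 to 0.587), 1.23% (0.887 to 1.67) and 0.573% (0.364 to 0.859). KO1 and KO2 were the lowest and the highest of all 5, with both Het libraries between them. The mean share was 0.613% ± 0.0748 (SD, n = 2) for Het libraries against 0.709% ± 0.472 (SD, n = 3) for KO-labelled ones. The difference of 0.0956 percentage points gave an exact two-sided permutation p of 0.9, where the 10 splits allow no p below 0.1. Without KO2 the difference was -0.167 points. These intervals cover counting error only, and a share of captured barcodes is not a number of cells per lung.

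**Figure D1:**
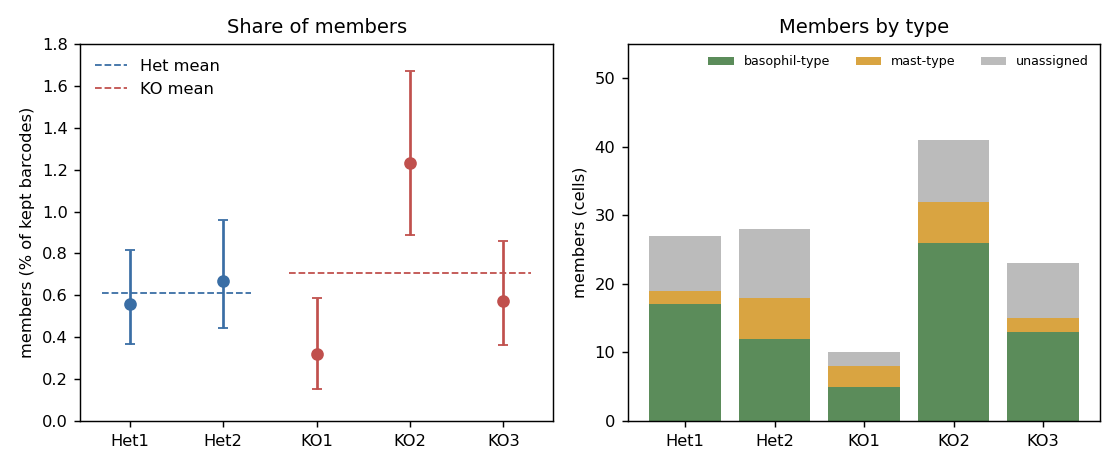
Left, members as a percent of kept barcodes in each library (points, with exact binomial 95% intervals; dashed lines are group means). Right, members of each type per library in cells. KO1 (10 cells) and KO2 (41 cells) lie on either side of the Het libraries (27 and 28 cells).

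The rule's own genes are given as a description. Cyp11a1, a steroidogenic enzyme also made by these cells, had a UMI in 124 of the 129 members. Cpa3, a granule carboxypeptidase, was found in 123, and Ms4a2, the β chain of the IgE receptor, in 110. The basophil proteases Mcpt8 and Prss34 were found in 79 and 37 members, and Fcer1a, the IgE-binding chain, in 49. Of the members, 10 held 2 of the 6 genes, 28 held 3, 43 held 4, 42 held 5 and 6 held all 6. In 7925 other immune barcodes (Ptprc present, not members), the pooled share with a UMI ran from 0.0505% for Fcer1a to 0.606% for Cpa3. In 2701 endothelial barcodes it ran from 0% to 0.333%, at library median depths of 8910 to 13201.5 UMIs against 12389.5 to 13822 in other immune barcodes and 6311.5 to 7593 in members. The highest value in any library was 1.02%, for Cpa3 in the other immune barcodes of KO2. Members had to hold 2 of these genes, so the gap to these barcodes is set by the rule and supports nothing.

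Genes outside the rule that mark these cells were also found in them. Hdc, which makes histamine, had a UMI in all 129 members, and Ifitm1, an interferon-inducible membrane protein abundant in mouse basophils, in 128. Gata2, the interleukin 33 receptor Il1rl1 and the inhibitory receptor family member Cd200r3 were each found in 119. In other immune barcodes Ifitm1 was found in 1470 of 7925, Hdc in 17.6%, Gata2 in 1.01% and Cd200r3 in 0.404%. In endothelial barcodes, Gata2 was found in 35.9%, Ifitm1 in 20.3%, Hdc in 9.22% and Cd200r3 in 0.185%. The vesicular amine carrier Slc18a2, which loads histamine into granules, was found in 94 members, and the type 2 cytokines Il4 and Il13 in 73 and 64. Ranked against other immune cells, the leading genes were Mcpt8, Cpa3, Cyp11a1, the tryptase Tpsb2 and the chymase Cma1. This ranking uses the cells the rule chose and carries no test.

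At the rule's threshold, 10 members held exactly 2 of the 6 genes, and 58 barcodes without any exclusion gene held exactly 1. Hdc was found in 10 of the first and 20.7% of the second, Gata2 in 8 and 3.45%, Cd200r3 in 7 and 0%, and Il1rl1 in 9 and 12.1%. Among the 119 members with 3 or more genes, these shares were 100%, 93.3%, 94.1% and 92.4%. The exclusion genes removed 5, 4, 2, 10 and 10 barcodes in Het1, Het2, KO1, KO2 and KO3 that otherwise met the rule. Members held 78.2% and 76.8% of all Cpa3 UMIs in kept Het barcodes, and 87.5%, 57.2% and 40.4% in the KO-labelled libraries.

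Some defining genes of other granulocytes and leukocytes were at 0 and others were found. The eosinophil genes Prg2, Epx, Prg3 and Ear6 were at 0 in every member, as were Ly6g and Ltf of neutrophils, Marco and Chil3 of macrophages, Ly6c2 of monocytes, Ms4a1 and Pax5 of B cells, and Cd3e and Cd3d of T cells. Found in members were Ccr3 and Siglecf of the eosinophil list, in 43 and 32 of the 129 cells, Il7r of the lymphoid list (40 and 26 UMIs in Het against 17, 76 and 26) and Nkg7 of the same list (40 and 21 against 0, 27 and 9), Ccr2 of the monocyte list (55 and 44 against 21, 91 and 57) and Adgre1 of the macrophage list (36 and 45 against 12, 63 and 40). The neutrophil gene S100a9 had 146 UMIs in KO2 against 1 to 31 elsewhere. The 8 neutrophil genes summed to 1.36 to 2.49 UMIs per 10000 in Het members and 0.506 to 7.06 in KO-labelled members. The 8 macrophage genes summed to 1.79 to 2.55 and 1.64 to 2.98, the 6 monocyte genes to 3.67 to 3.95 and 3.98 to 5.31, and the 8 genes of T, NK and innate lymphoid cells to 2.16 to 3.91 and 2.05 to 3.55. The part of other cell types in these values was not tested. Red blood cells were lysed before capture, and haemoglobin and other erythroid genes had the highest sum of these lists, at 402 and 388 UMIs per 10000 in Het against 361, 108 and 474 in KO-labelled members. KO2 was thus lowest in erythroid RNA and highest in member number, and the part of one in the other was not tested. Members in which 3 or more markers of some other lineage were found numbered 14, 10, 5, 10 and 9 by library, and a doublet score marked 1 member each in Het2, KO2 and KO3.

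The members joined 2 kinds of cell. Mast-type cells, with UMIs of at least 2 of the 8 genes Cma1, Mcpt4, Mcpt1, Mcpt2, Tpsb2, Tpsab1, Mrgprb1 and Mrgprb2, numbered 19. Basophil-type cells, with Mcpt8 or Prss34 and fewer than 2 mast cell genes, numbered 73, and 37 met neither rule. The chymase Cma1 and the tryptases Tpsb2 and Tpsab1 were each found in all 19 mast-type cells, while Mcpt8 was found in 36.8% of them. Mcpt1, a mucosal mast cell protease, was at 0, and Mcpt4 had 210 UMIs, 206 of them in 1 cell. Median depth was 9383 UMIs in mast-type, 7054 in basophil-type and 5507 in unassigned cells, and the shares below were not corrected for it.

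Some genes that did not enter this split followed it, given here over cells and without a test. Kit, the stem cell factor receptor, was found in 100% of mast-type and 15.1% of basophil-type cells. The progenitor and mast cell sialomucin Cd34 was found in 89.5% and 1.37%, the mast cell transcription factor Mitf in 57.9% and 0%, the signalling regulator Rgs13 in 47.4% and 0%, and the prostaglandin D synthase Hpgds in 73.7% and 0%. In the other direction, Hgf, a growth factor, was found in 0% of mast-type and 76.7% of basophil-type cells. The integrin Itgam was found in 10.5% and 63.0%, and the eotaxin receptor Ccr3 in 0% and 41.1%. Of the basophil list, Itga2 also parted (15.8% and 50.7%). By share of cells, Cd200r3 (84.2% and 94.5%), Grm6 (63.2% and 69.9%) and Ifitm1 (94.7% and 100%) parted little. The same held for Lilr4b (89.5% and 95.9%). Cyp11a1 stood at 94.7% and 94.5%, but it is a gene of the rule for members, so its shares are partly set by that rule. The shallower basophil-type cells thus held a UMI of Hgf, Itgam and Ccr3 more often, although they were shallower.

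Several cytokines and chemokines were found more often in basophil-type than in mast-type cells. The macrophage inflammatory chemokines Ccl3 and Ccl4 were found in 97.3% and 91.8% of basophil-type and 47.4% and 10.5% of mast-type cells, at 48.0 and 88.5 against 4.47 and 2.76 UMIs per 10000. Il6 was found in 90.4% against 10.5%, and Csf1, the macrophage growth factor, in 79.5% against 36.8%. By share of cells Il4 went the other way, in 52.1% of basophil-type and 73.7% of mast-type cells, as did Tnf (21.9% and 26.3%) and Vegfa (13.7% and 26.3%). Per 10000 UMIs, Il4 stood at 1.88 and 2.03 and Vegfa at 0.229 and 0.968. Tnf stood at 0.422 and 0.369, and so was higher in basophil-type cells on this scale. In unassigned cells Ccl3 and Ccl4 stood at 87.2 and 150.0 UMIs per 10000, above both types. Both types made Hdc in every cell, at 22.2 UMIs per 10000 in basophil-type and 47.8 in mast-type cells. Cpa3, a gene of the rule for members and so given as a description, stood at 10.2 and 67.6. Fcer1g and Srgn, the IgE receptor γ chain and the granule proteoglycan core, were found in all cells of both. Ltc4s, Ptgdr2, Ccl2 and Mcpt9 were at 0 in every member.

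The 37 unassigned cells lay near the basophil-type cells in most of these genes. Cd9 was found in 100% of both and in 42.1% of mast-type cells, and Ccl4 in 94.6%, 91.8% and 10.5%. Kit was found in 21.6% of them and Cd34 in 2.70%. They held the highest share with Il13 (27 of 37 cells, against 42.5% of basophil-type and 31.6% of mast-type cells) and with Csf2 (27.0%, 6.85% and 0%). Because Mcpt8 and Prss34 are absent from them by the rule, they are not given a name. In Het2, 1 unassigned cell held 65 UMIs of Cma1, 76 of Cpa3, 9 of Kit and 0 of Ccl3 and Ccl4. It held only 1 of the 8 mast cell genes, and so was not counted among the mast-type cells.

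**Figure D2:**
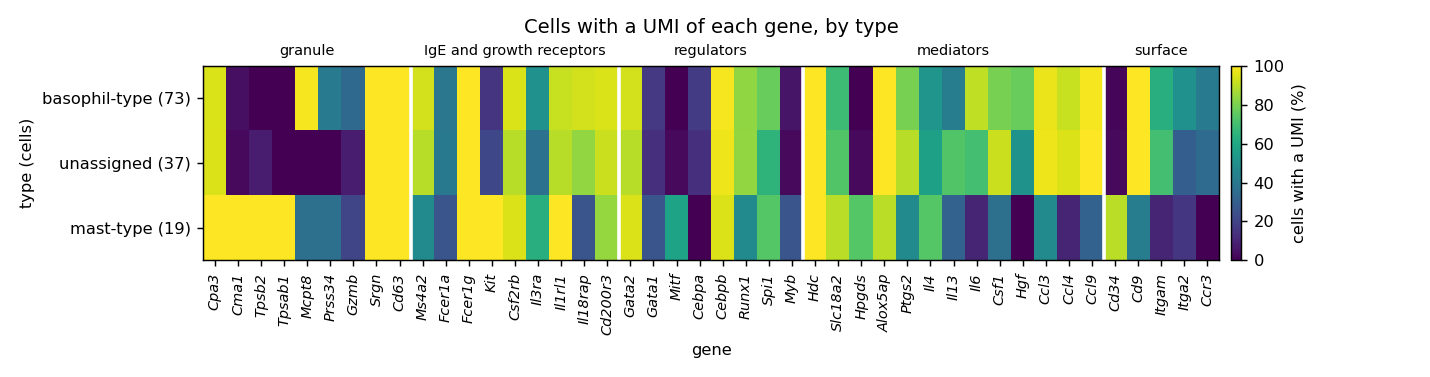
Percent of cells with a UMI of each gene (colour) in basophil-type, unassigned and mast-type members, pooled over 5 libraries, with genes grouped by role. Cma1, Tpsb2, Tpsab1, Mcpt8 and Prss34 set the types; Kit (100% against 15.1%) and Hgf (0% against 76.7%) did not.

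No difference in the mix of types or in cycling could be called, since the 10 splits allow no p below 0.1. Mast-type cells numbered 2 of 27, 6 of 28, 3 of 10, 6 of 41 and 2 of 23 in Het1, Het2, KO1, KO2 and KO3. Their share was 14.4% ± 9.91 (SD, n = 2) for Het libraries against 17.8% ± 11 (SD, n = 3) for KO-labelled ones, with an exact permutation p of 0.8. Without Het1 and without KO1 the difference of 3.36 points turned to -3.65 and -2.75. Basophil-type cells made up 52.9% ± 14.2 (SD, n = 2) and 56.6% ± 6.71 (SD, n = 3), with an exact permutation p of 0.6, and without Het2 their difference of 3.74 points was -6.32. Cycling cells, with UMIs of at least 3 of 12 mitotic genes after thinning to 2000 UMIs, numbered 0, 1, 0, 2 and 1, with an exact permutation p of 0.6. Unthinned counts gave 2, 3, 1, 2 and 2 cells and a difference of -1.20 points against 1.29 points thinned. With this floor, a change in mix or cycling of any size could not pass, and the cells were also few.

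To ask which genes differed between genotypes, UMIs of all members were summed per library. These sums held 212441 UMIs in Het1, 235610 in Het2, 79081 in KO1, 315735 in KO2 and 170994 in KO3. Of 2845 genes tested by edgeR's quasi-likelihood fit, 1 passed an adjusted p of 0.05, or 0.0351% of the genes, and 106 (57 higher and 49 lower) had an unadjusted p under 0.05, or 3.73%. Groups did not overlap for 500 genes, or 17.6%. Simulated data gave back 16.0% of genes changed by 1 on the log2 scale and 81.5% of those changed by 2, so smaller differences were mostly out of reach.

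The gene that passed was Ctla2a (ENSMUSG00000044258, chromosome 13, 60934155 to 60936625, minus strand, GRCm38), a protein-coding gene for a cysteine protease inhibitor related to cathepsin propeptides. It had 15 and 42 UMIs in Het against 205, 351 and 421 in KO-labelled libraries. Scaled by TMM, these were 79.5 and 197 CPM against 2850, 1214 and 2814 CPM. Every KO-labelled library lay above both Het libraries. Ctla2a rose, with means of 138 ± 82.9 CPM in Het (SD, n = 2) and 2293 ± 935 in KO-labelled members (SD, n = 3), and a log2 difference of 4.01 (SE 0.43) with an edgeR adjusted p of 0.00173. In other immune cells Ctla2a differed by -0.37 on the log2 scale, with an edgeR adjusted p of 0.0343.

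Ctla2a lay almost entirely in the mast-type cells. Their summed level was 4.06 and 5.35 UMIs per 10000 in Het against 68.1, 46.0 and 252 in KO-labelled libraries. The other members held 0.111 and 0.465 against 0.204, 0.291 and 0.130. Among 8 Het mast-type cells the lowest, median and highest counts were 0, 6.5 and 13 UMIs, and 3 were at 0. Among 11 KO-labelled mast-type cells they were 1, 46 and 381 UMIs. Medians were 5.34 and 58.6 UMIs per 10000. On this scale, KO2 cells at 1.64 and 13.4 lay within the Het range of 0 to 20.5. Het2 gave 6 of the 8 cells and KO2 gave 6 of the 11, and these pooled cells are a description and not replicates. With the mast-type cells left out, the term setting members against other immune cells, 4.25 with all members, was -0.08 on the log2 scale.

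A few cells carry this result. In KO3, 1 cell held 381 of 421 UMIs, and the doublet score marked it. In KO2, 1 cell held 186 of 351. With marked cells left out the difference was 3.29 and the edgeR adjusted p 0.480. Without KO1 it was 3.82 (adjusted p 0.0660) and without KO3 3.81 (0.0928), and with sex as a covariate 4.32 (0.0820). With at least 3 marker genes the edgeR adjusted p was 0.342, with no exclusion genes 0.105, with mixed members left out 0.0541 and with a minimum count of 30 0.0617, at differences of 3.17 to 4.00. The log2 difference in members kept its direction in every fit of members that tested the gene. With mast-type cells left out, it was not tested in members.

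Mast cell barcodes outside the members were few, and their values were mixed. Kept non-members with 2 mast cell genes and no Cdh5 UMI numbered 3 in Het1, 1 in Het2, 0 in KO1, 2 in KO2 and 2 in KO3. They held 11.5 and 2.41 UMIs of Ctla2a per 10000 in Het1 and Het2 and 8.13 and 9.58 in KO2 and KO3, and 1 cell of Het1 held 41 UMIs, so that the groups overlapped. Barcodes outside the filter with 2 mast cell genes and no Cdh5 UMI numbered 2, 4, 3, 6 and 4 by library. They held 7.70 and 1.36 UMIs of Ctla2a per 10000 in Het against 19.7, 8.73 and 12.5 in KO-labelled libraries, with no overlap, from 3 and 2 UMIs against 7, 13 and 11, and 1 barcode each held 11 in KO2 and KO3. Barcodes with a Cdh5 UMI and no Ptprc UMI, which are mostly endothelial, held 3.11 to 4.66 per 10000 in all 5 libraries. Ctla2b, the neighbouring paralog (chromosome 13, 60895350 to 60897447, minus strand), had 1 and 5 UMIs in Het against 7, 30 and 6 in KO-labelled libraries. Of the 30 in KO2, 26 lay in 1 cell, the same that held 186 UMIs of Ctla2a. Its log2 difference of 2.40 (SE 0.66) did not pass (edgeR adjusted p 0.690), while in other immune cells it rose by 1.26 (edgeR adjusted p 0.00560). Reads of this pair can be split uncertainly, so the level of each is less certain than its counting error.

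**Figure D3:**
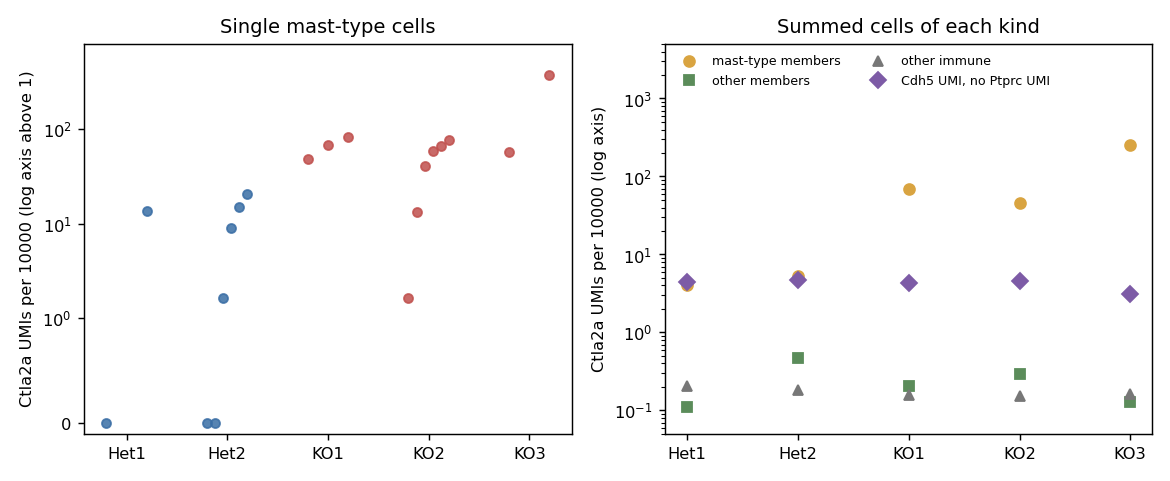
Ctla2a UMIs per 10000 UMIs, on a log axis. Left, each mast-type member (points; axis linear below 1); right, sums over mast-type members, other members, other immune cells and barcodes with a Cdh5 UMI and no Ptprc UMI. Het mast-type sums (4.06 and 5.35) lie near those of the Cdh5 barcodes (3.11 to 4.66), and the KO-labelled sums (46.0 to 252) above them.

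No other gene passed. The following values are those with the smallest p in each direction among genes whose groups did not overlap. At least 20 UMIs in the higher group were also required, so the lack of overlap is set by this choice. Among granule genes, Gzmb, a serine protease of cytotoxic granules, had 132 and 118 UMIs in Het against 13, 60 and 39 in KO-labelled libraries. These were 700 and 553 CPM against 181, 207 and 261 CPM, a log2 difference of -1.51 (SE 0.25, edgeR adjusted p 0.0680). The adjusted p was 0.0196 with DESeq2, 0.0353 with edgeR on library size alone and 0.00445 with edgeR without Het2. Cma1, the mast cell chymase, was 3224 and 4330 CPM against 2517, 1823 and 1511 CPM, a log2 difference of -0.97 (SE 0.21, edgeR adjusted p 0.218). In Het1, 1 cell held 529 of its 608 UMIs. Without Het1 the edgeR adjusted p of Cma1 was 0.0235, and with mixed members left out its difference was 0.07.

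Cxcl2, a neutrophil-attracting chemokine, stood at 530 and 450 CPM in Het against 987, 1051 and 1063 CPM in KO-labelled libraries. The log2 difference of 1.08 (SE 0.20) had an edgeR adjusted p of 0.0833 and a DESeq2 adjusted p of 0.0470. It was found in few cells (8, 5, 5, 13 and 9 in Het1, Het2, KO1, KO2 and KO3), and in KO1 1 cell held 60 of 71 UMIs. With no exclusion genes its difference was 0.38.

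Itga4, the α4 integrin used in homing to tissues, had 29 and 22 UMIs in Het against 1, 7 and 3 in KO-labelled libraries. Its log2 difference was -2.54 (SE 0.44, edgeR adjusted p 0.0698), and 24 of the 29 UMIs of Het1 lay in 1 cell. Tent5a, a poly(A) polymerase, had 49 and 91 UMIs against 6, 33 and 18, a log2 difference of -1.64 (SE 0.29, edgeR adjusted p 0.0737). It lay mainly in mast-type cells in both Het libraries (35 of 49 and 57 of 91 UMIs). Library size alone gave edgeR adjusted p-values of 0.0452 for Itga4 and 0.0475 for Tent5a, and leaving out a Het library 0.0100 for Itga4 (without Het2) and 0.00417 for Tent5a (without Het1).

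The remaining named genes were further from the threshold. Higher in the KO-labelled libraries were Rasgef1b (2.61), a Ras exchange factor, Id1 (1.74), an inhibitor of helix-loop-helix factors, Btg1 (0.66), an antiproliferative factor, Ccdc47 (1.71), the proliferation marker Mki67 (1.5), the platelet-activating factor receptor Ptafr (1.18) and the acyltransferase Mboat7 (1.24), all log2 differences. Their edgeR adjusted p-values ran from 0.535 for Rasgef1b to 0.988 for Mki67, Ptafr and Mboat7. Lower were the tRNA synthetase Eprs (-1.68), Otulinl (-1.05), the metallothionein Mt1 (-1.30), the lysozyme Lyz2 (-2.02), the proton-sensing receptor Gpr65 (-1.40) and the phagocytosis checkpoint receptor Sirpa (-1.08), with edgeR adjusted p-values from 0.398 for Eprs to 0.999 for Sirpa. Without Het1 the edgeR adjusted p was 0.00129 for Rasgef1b, which was at 0 UMIs in Het2, and 0.0122 for Lyz2. With no exclusion genes the difference of Id1 was -0.39.

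**Figure D4:**
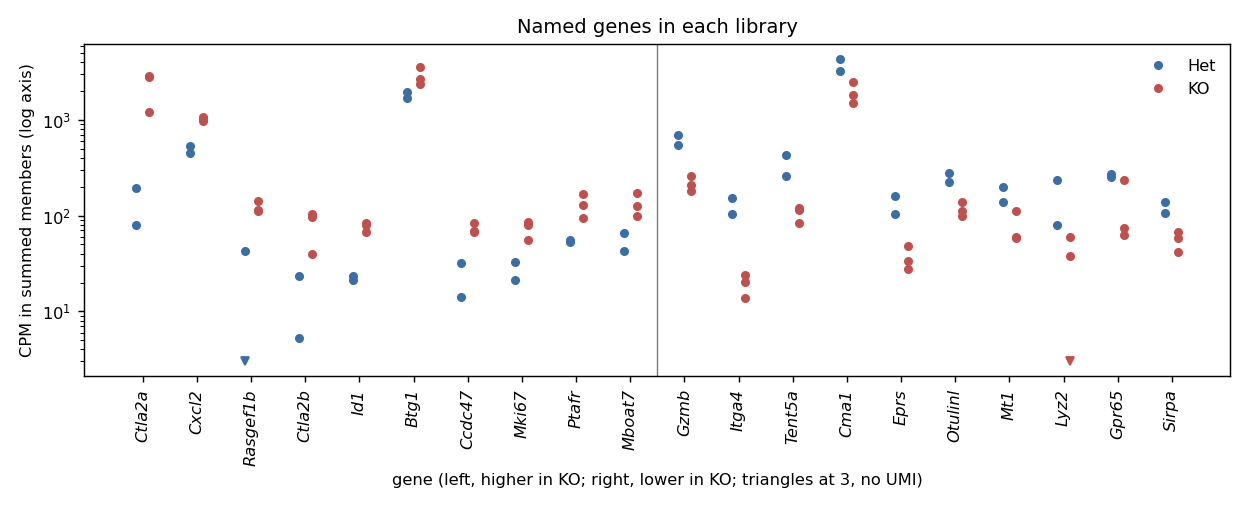
CPM of the named genes in members summed per library, on a log axis. Each point is 1 library (2 Het, 3 KO-labelled) and a triangle at 3 stands for no UMI. Ctla2a was the gene that passed, at 79.5 and 197 CPM in Het and 1214 to 2850 CPM in KO-labelled members.

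In the gene lists for these cells, 0 genes passed with edgeR, while DESeq2 called Cxcl2 and Gzmb. Unadjusted edgeR p-values under 0.05 are named or counted for the lists given with a median. Of 7 basophil genes tested outside the rule, 5 were above and 2 below 0, with a median of 0.28. Of these, 2 had an unadjusted p under 0.05, both above 0, against 3.73% of all genes tested. Of 11 mast cell genes 4 were tested, 1 above and 3 below 0, with a median of -0.53, and Cma1 had an unadjusted p under 0.05. Of 14 genes of IgE receptor signalling, 10 were tested, 7 of them with values above 0 and 3 below, and the median log2 difference was 0.19 against 0.0011 over all genes tested. Fcer1g, the receptor's signalling chain, had 368 and 372 UMIs in Het against 152, 595 and 237 in KO-labelled libraries, a log2 difference of 0.05. The kinases Lyn and Fyn differed by 0.10 and 0.68, Syk by -0.51 and the adaptor Lat by 0.31. No gene of this list had an unadjusted p under 0.05.

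Of 19 transcription factors 9 were tested, 3 above and 6 below 0, with a median of -0.11. Gata2 had 230 and 252 UMIs in Het against 64, 288 and 201 in KO-labelled libraries, and differed by -0.15 (SE 0.20). Cebpb, Runx1 and Spi1 differed by -0.11, 0.28 and -0.02. Mitf, found mainly in mast-type cells, was too low to be tested, at 5, 9, 2, 8 and 1 UMIs in Het1, Het2, KO1, KO2 and KO3.

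Among granule genes, 10 of 14 outside the rule were tested, 2 above and 8 below 0 with a median of -0.27, and Gzmb and Cma1 had an unadjusted p under 0.05. The tryptases Tpsb2 and Tpsab1 differed by -0.61 and 0.59, and Srgn by -0.02. Of 10 histamine and eicosanoid genes 7 were tested, with a median of 0.07. Hdc differed by -0.20 (SE 0.17), Slc18a2 by -0.01, the prostaglandin synthase Ptgs2 by 0.07 and Alox5ap, of leukotriene synthesis, by 0.21.

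Of 20 cytokines and chemokines 16 were tested, 9 above and 7 below 0, with a median of 0.04. Unadjusted p-values were under 0.05 for Cxcl2 and Areg (1.58) above and for Ccl4 (-0.36) and Vegfa (-1.46) below. Areg, a ligand of the EGF receptor, stood out in KO1, with 67 UMIs in 10 members against 18 and 35 in Het1 and Het2. Il4, Il13, Il6 and Csf1 differed by -0.17, -0.36, 0.11 and 0.09. Of 22 receptor genes 15 were tested, with a median of 0.18, and Il1rl1 and Csf2rb differed by 0.18 and -0.02. In this list 1 gene, above 0, had an unadjusted edgeR p under 0.05.

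Cell cycle genes had the list median farthest above 0 among those with at least 5 genes tested, 1.47 over 7 of 26 genes. Ube2c, Mki67, Cenpf and Birc5 had unadjusted edgeR p-values under 0.05, at log2 differences of 1.99, 1.5, 2.62 and 1.47. These were 4 of the 7 genes tested, against 3.73% of all genes tested. The low-count filter could admit a gene through KO-labelled libraries alone, as it did Ube2c and Mki67. A list median above 0 is therefore partly set by the filter, and neither it nor this share is read as a result. Their UMIs were few (Ube2c had 7 and 5 in Het against 1, 49 and 18 in KO-labelled libraries), and Top2a differed by -0.05. For Mki67, 1 cell held 21 of 25 UMIs in KO2 and 1 cell held 10 of 12 in KO3. In KO2, 2 mast-type cells held all 12 mitotic genes. H19, a host of a microRNA, had 18 and 7 UMIs in Het against 200, 30 and 4 in KO-labelled libraries, with 92 of the 200 in 1 cell of KO1. Its log2 difference was 3.77 with an edgeR adjusted p of 0.999. Zswim8 itself had 3, 2, 2, 4 and 3 UMIs in Het1, Het2, KO1, KO2 and KO3 and was not tested in members.

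The marker transcripts were also read in the sum of all kept barcodes, which does not use the rule for cells. There, 646 of 17798 genes passed with edgeR, or 3.63%. Of the marker lists, Mitf (-0.60, edgeR adjusted p 0.0310) and Lilr4b (-0.77, 0.0396) passed. Members held few of these UMIs, 5 of 1512 for Mitf and 228 of 4154 for Lilr4b in Het1. Both calls were lost without Het1, Het2, KO2 or KO3, and with sex as a covariate (edgeR adjusted p 0.0573 to 0.252 over both genes).

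The rule's genes in this sum did not pass. Mcpt8 was 11.2 and 7.58 CPM in Het against 4.42, 8.05 and 6.33 CPM in KO-labelled libraries, a log2 difference of -0.58 (edgeR adjusted p 0.251). Prss34 was 4.45 and 3.77 against 0.833, 0.662 and 3.47 CPM, a log2 difference of -1.27 (0.287, and 0.0303 without KO3, at -2.46). Cpa3, Ms4a2, Fcer1a and Cyp11a1 differed by -0.08, 0.32, 0.69 and 0.51. KO2 was the highest library for these 4, and without it Ms4a2, Fcer1a and Cyp11a1 differed by -0.11, -0.04 and -0.29. In such sums, fewer cells and less RNA per cell cannot be told apart.

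The KO-labelled against Het difference was then compared between members and other immune cells of the same libraries. The class by genotype term passed with edgeR for 25 of 12203 genes, or 0.205%, with 12 higher and 13 lower in members, and 517 had an unadjusted p under 0.05. DESeq2 called 1. The fit used 1 spread for sums of 10 to 41 cells and for sums of 889 to 1967 cells, so that the p-values of rarer genes in members are less certain. Levels in this comparison are UMIs of members and CPM by library total of other immune cells.

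Among called genes whose libraries did not overlap, the 5 largest differences above 0 were those of Ctla2a (4.25), Il1a (3.21), Rasgef1b (2.38), Aqp9 (2.35) and Il7r (2.10). For Il1a, Aqp9 and Il7r the other immune cells fell, by 1.35, 2.28 and 1.71 on the log2 scale (edgeR adjusted p 0.00116, 0.00267 and 0.0237). Il7r, the interleukin 7 receptor, had 40 and 26 UMIs in Het members against 17, 76 and 26 in KO-labelled members, a difference of 0.45 in members (edgeR adjusted p 0.999). In other immune cells it was 22.8 and 27.0 CPM against 2.87, 10.0 and 10.0 CPM, with no overlap. Aqp9, a water and glycerol channel, had 29 and 15 UMIs against 8, 24 and 27 in members, and 7.63 and 7.63 CPM against 1.20, 2.25 and 1.42 CPM in other immune cells. Il1a had 4 and 2 against 15, 8 and 3 UMIs in members.

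The 5 largest below 0 were those of Cma1 (-4.59), Itga4 (-2.57), Rapsn (-2.42), Gpr65 (-1.95) and Lyz2 (-1.82). For Cma1 the term rests on other immune cells of KO3, at 15.8 CPM against 0.119 to 0.419 CPM elsewhere. Without KO3 it was -1.41 with an edgeR adjusted p of 1.0. The KO3 value came from 9 of 1640 barcodes. Members held 32.1% of the Cma1 UMIs of kept barcodes in KO3, against 65.3% and 76.9% in Het. In KO1 and KO2 they held 95.8% and 62.7%. The other immune class thus held mast cell transcripts that the rule for members missed, and its mix of cell types was not compared. Rapsn, a synaptic scaffold protein, rose in other immune cells by 1.98 (edgeR adjusted p 0.00143) and had 22 and 18 UMIs against 10, 22 and 7 in members. Gpr65 rose in other immune cells by 0.47 (edgeR adjusted p 0.0256) and had 48 and 58 UMIs against 17, 18 and 11 in members. Lyz2 had 15 and 50 UMIs against 0, 11 and 9 in members, and 43 of the 50 in Het2 lay in 1 mast-type cell. Other immune cells held 4858 to 5860 CPM. It is a lysozyme abundant in macrophages and neutrophils.

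Most of these 10 terms depended on single libraries. The Ctla2a term ran from 3.69 to 5.13 with a library left out, and it was called with DESeq2, which called none of the other 9 named genes. The term was not fitted with marked doublets left out or with sex as a covariate. In the fit of members, Ctla2a lost its call in both settings (edgeR adjusted p 0.480 and 0.0820). Without Het2 the edgeR adjusted p was 0.187 for Il1a, 0.243 for Il7r, 0.432 for Rapsn and 1.0 for Rasgef1b, Aqp9 and Lyz2, and without Het1 0.0735 for Itga4 and 0.385 for Rapsn. Without KO1 it was 0.361 for Il1a and 0.101 for Aqp9. Without KO2 it was 0.321 for Rasgef1b, 0.525 for Rapsn, 0.151 for Gpr65 and 0.192 for Lyz2, and without KO3 0.294 for Rapsn, 0.0600 for Lyz2 and 1.0 for Aqp9.

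**Figure D5:**
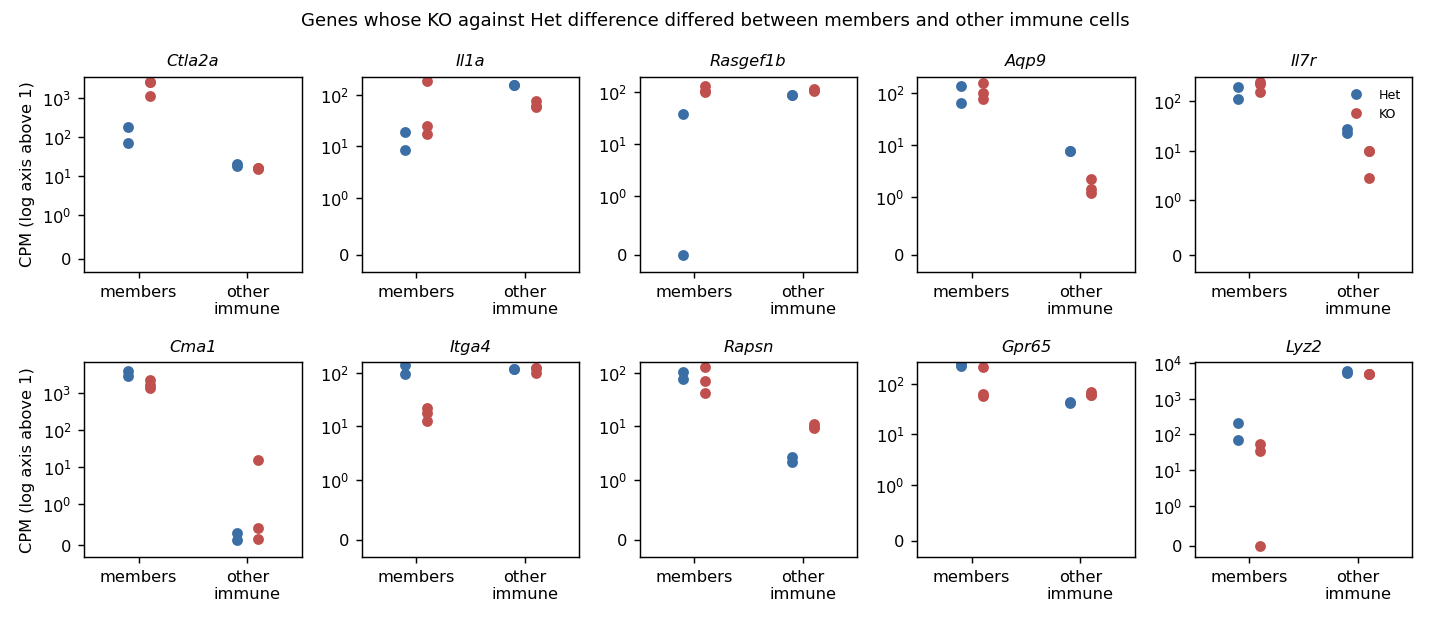
CPM by library total of the 10 genes named for the class by genotype term, in members and other immune cells (points are libraries; axis linear below 1). For Il7r and Aqp9 the Het and KO-labelled points part in the other immune cells, and for Ctla2a and Itga4 in the members.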

How the data were processed

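Whole lungs of 2 Het and 3 KO-labelled E18.5 embryos were profiled by droplet single-cell RNA sequencing. The authors deposited unnormalised UMI counts for each gene in each barcode. The submitters' processing notes name Cell Ranger 4.0.0 and build mm10. Of 32285 gene IDs, 32158 matched GENCODE M21 (GRCm38), which gave coordinates. Promoters came from RefSeq (GRCm38.p6) and matched all 6 genes shown, and were aligned with Biopython 1.88. Nothing states that the filter on barcodes before deposit removed doublets.

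Members and gene lists were chosen with earlier results of these data known. UMIs were summed per library, since cells are not replicates, and each embryo is 1 replicate. Sums were fitted with edgeR 4.0.16 (TMM, low-count filter, quasi-likelihood, two-sided, Benjamini-Hochberg over all genes tested, threshold 0.05), with DESeq2 1.42.0 in R 4.3.3 as an alternative. The 11 genes of the rule stayed in the fit and out of the counts of calls, except in the whole-library total. The class by genotype term used the library as a block. Shares were compared by exact permutation over 5 libraries. Doublet scores (scanpy 1.11.5, 20 principal components) marked the highest 0.8% per 1000 barcodes. Marked barcodes stayed in, and leaving them out was an alternative.

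Named genes were called genes with no overlap between groups and at least 20 UMIs in the higher group, the 10 with the largest log2 change in each direction. Genes with the smallest unadjusted p under the same conditions filled up to 10. Sex-linked, haemoglobin, mitochondrial and rule genes were left out, and 5 were named in each direction for the class by genotype term. Genes printed from the lists are examples picked with the values in view. Settings also tried were other marker and exclusion rules, barcode filters, doublets or mixed cells left out, thinning to 2000 UMIs, another denominator, a replicate block, DESeq2, scaling by library size alone, sex as a covariate, low-count filters, all deposited barcodes and leaving out each library. Leaving out mast-type cells and unthinned cycle calls were chosen after seeing the data. In simulated data with 200 genes changed by 1 or 2 on the log2 scale, the member fit gave 0 and 8 false calls among 2851 genes. The whole-library fit recovered 79.0% and 97.0%, and the class by genotype fit 0% and 29.5%.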

Additional observations from a re-analysis of the deposited data

Results flagged for a closer look

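For 10 genes the KO-labelled against Het difference in members differed from that in other immune cells by the class by genotype term (edgeR). The differences between the log2 values were 4.25 for Ctla2a, 3.21 for Il1a, 2.38 for Rasgef1b, 2.35 for Aqp9, 2.10 for Il7r, -4.59 for Cma1, -2.57 for Itga4, -2.42 for Rapsn, -1.95 for Gpr65 and -1.82 for Lyz2. Barcodes outside the filter that met the marker rule were also counted, since they enter no comparison. KO2 held 13 of 5625, or 0.231%, and Het1, Het2, KO1 and KO3 held 4, 5, 3 and 4, or 0.0459%, 0.0821%, 0.0536% and 0.0827%. KO2 was thus highest on both sides of the filter.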

How the results depend on the processing

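The log2 difference of Ctla2a in members kept its direction in every alternative that tested it there, and its call did not hold in 8 of these. The count of genes called in members was 0 with at least 3 marker genes, no exclusion genes, doublets, mixed cells or mast-type cells left out, a minimum count of 30 in the filter or sex as a covariate (34 to 150 genes at an unadjusted p under 0.05). It was 3 with DESeq2, 4 with library size alone (1 higher and 3 lower) and 4 with a replicate block, and from 0 to 10 with a library left out, where the lone sample of a group is assumed to vary like the others. The class by genotype count of 25 was 1 with DESeq2 and 14 with mixed cells left out, and from 7 to 38 with a library left out. For marker genes in the whole library, the count of 2 was 4 with DESeq2, 0 with the sex covariate, 0 with the replicate block and 1 on all deposited barcodes, and from 0 to 2 with a library left out.

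The difference in member share ran from -0.167 to 0.290 points with a library left out, that of the mast-type share from -3.65 to 10.4, that of the basophil-type share from -6.32 to 13.8 and that of cycling from -0.496 to 3.08. Unthinned, cycling differed by -1.20. Signs also turned for Id1 with no exclusion genes (-0.39) and Cma1 with mixed cells left out (0.0703), and for the Ctla2a term without mast-type cells (-0.0797). In the whole library they turned with the sex covariate for Fcer1a (-0.0948) and Cyp11a1 (-0.0104) and on all deposited barcodes for Cpa3 (0.0539). With a library left out the ranges were -0.0359 to 1.0051 for Fcer1a, -0.29 to 0.8483 for Cyp11a1, -0.11 to 0.6338 for Ms4a2 and -0.728 to 0.30 for Cpa3. The causes were not tested. Labels give Het and KO the numbers 1 and 2, and residuals of same-numbered libraries correlated by -0.07 and 0.02. With 2 Het libraries the values mirror each other (-0.0712 for Het1 and 0.0712 for Het2 with KO1). This check can therefore neither show nor exclude a pairing. The replicate block gave a difference in member share of 0.163 points. Of 311 single-gene values in members, 290 kept direction and side of the threshold. All of these genes but Ctla2a were uncalled in the main fit. For them, keeping their side meant staying uncalled, so this count is partly set in advance. Sums of 10 to 41 cells limit every comparison.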
